A study of Mus musculus with 39 samples.

Results

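Translational efficiency, the ribosome footprints of a gene relative to its RNA, was compared between tumors of mice given a diet lacking proline and arginine together with difluoromethylornithine (DFMO) and tumors of mice given that diet alone. The comparison was chosen by the labels of assay and group, and it holds 20 of the 39 libraries of the series, with 5 libraries in each combination of assay and group. All 10 mice carry the TH-MYCN transgene, in which the tyrosine hydroxylase promoter drives MYCN in the sympathetic lineage, and all ate the diet without proline and arginine. The combination group is mice Proargdrop_DFMO_5732, _5736, _5746, _5805 and _5825, and the group on the diet alone is mice Proargdrop_5702, _5705, _5784, _5785 and _5828. Values per mouse are given in this order throughout. The labels give no sex, age or batch, and each library is bulk tumor tissue. Footprints and RNA of a mouse came from 1 tissue extract, so the number of the mouse joins the 2 assays.

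DFMO inactivates ornithine decarboxylase, the enzyme that makes putrescine from ornithine, and ornithine can be made from arginine and from proline. Putrescine is turned into spermidine and spermine with aminopropyl groups supplied by S-adenosylmethionine decarboxylase. Cells sense polyamines largely during translation: short reading frames in the leaders of some mRNAs, frameshifting in the antizyme mRNA, and the spermidine-derived hypusine of the elongation factor eIF5A all tie polyamine supply to protein synthesis. In neuroblastoma MYCN raises the genes of polyamine synthesis. Because the tissue is bulk, fewer cells of a type and less RNA per cell cannot be told apart in any value given here.

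Footprint libraries held 4701856 to 12409644 counts in the combination and 3353371 to 8228409 on the diet alone, and RNA libraries held 29267799 to 38639741 counts in the combination and 17354972 to 37363029 on the diet alone. A pair of mice stood apart. RNA of mouse Proargdrop_5828 held 12969 transcripts, against 14977 to 15645 in the other diet mice, and 42.66% of its counts fell on cytosolic ribosomal protein genes, against 22.05% to 30.04%. Its erythroid markers summed to 311000 CPM (counts per 1000000) of RNA, against 18720 to 54600 CPM in the other diet mice. In mouse Proargdrop_DFMO_5732 the assays diverged: across genes, departures from the group mean correlated at -0.27 between its assays, against 0.01 to 0.48 in the other 9 mice. Its RNA correlated at 0.33 with footprints of another combination mouse. In 6 of 10 mice RNA correlated best with the mouse's own footprints, and whether the labels of the others are matched was not tested. Of 12 neuroblast markers all had counts in both groups, with summed footprints of 1876 to 2476 CPM in the combination and 1584 to 1965 CPM on the diet alone. Summed RNA of these markers did not overlap, at 2070 to 3001 CPM in the combination and 1273 to 1828 CPM on the diet alone.

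Of 13749 genes tested with edgeR's quasi-likelihood test, translational efficiency was higher in the combination for 70 genes (0.509% of those tested) and lower for 10 (0.0727%) at an adjusted p under 0.05, together 0.582%. The smallest adjusted p was 0.00181, and 1939 genes had an unadjusted p under 0.05. The log2 ratio of footprints to RNA, taken mouse by mouse, did not overlap between the groups for 68 of the 70 and for 9 of the 10. Such separation was seen in 5.07% of all genes tested, with the combination above in 3.43% and below in 1.64%. These ratios come from the same counts as the calls, so separation among called genes is no separate evidence. The quasi-likelihood test did not pair the assays of a mouse and treated the libraries as independent. With the mouse as a block 33 genes passed, 29 higher and 4 lower, and 29 of the 33 were among the 80. Leaving out a mouse moved the count of 80 by over 1.5 times in 9 of 10 cases. Among combination mice, 23 genes passed without Proargdrop_DFMO_5732, 21 without Proargdrop_DFMO_5736, 31 without Proargdrop_DFMO_5746, 29 without Proargdrop_DFMO_5805 and 34 without Proargdrop_DFMO_5825. Among diet mice, 132 passed without Proargdrop_5705, 37 without Proargdrop_5784, 19 without Proargdrop_5785 and 198 without Proargdrop_5828, and 55 without Proargdrop_5702.

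Most of the calls were genes whose RNA differed while footprints were not called different. Of the 70 genes with higher efficiency, 60 had lower RNA in the combination, and in 56 of these the footprints did not pass the test. Footprints were higher for 14 of the 70, 10 of them with no call in RNA. All 10 genes with lower efficiency had higher RNA, and none had a footprint call. The median change of the 70 genes was -1.15 (log2, combination over diet alone) in RNA and 0.31 in footprints, and of the 10 genes 1.26 in RNA and -0.35 in footprints. The efficiency change is the difference between these 2 changes, so they are its components and no separate evidence.

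Across all genes tested, the RNA arm held far more calls than the footprint arm in the main fit. RNA was higher in the combination for 2074 genes (15.1%) and lower for 2713 (19.7%), together 34.8%. Footprints were higher for 861 (6.26%) and lower for 462 (3.36%), together 9.62%. The size of this excess depended on the fit. With voom quality weights 5858 genes were called in RNA and 5291 in footprints. Without Proargdrop_5828 and Proargdrop_DFMO_5732 the counts were 4504 and 2669. RNA libraries were also deeper than footprint libraries, and the part of depth was not tested. On RPKM values (reads per kilobase and depth) with limma the RNA split was 2085 higher and 677 lower, and the footprint split 985 higher and 142 lower. Changes in the 2 assays correlated at 0.71 across genes, which are not independent replicates. Genes with lower RNA had a median change of -0.96 in RNA and -0.36 in footprints, and genes with higher RNA a median of 1.30 in RNA and 0.79 in footprints. Median changes over all genes were -0.06 in RNA, 0.02 in footprints and 0.09 in efficiency. Footprint calls also depended on single mice, with 820, 874, 717 and 776 calls without mice Proargdrop_DFMO_5736, Proargdrop_DFMO_5746, Proargdrop_DFMO_5805 and Proargdrop_DFMO_5825, and 806, 710 and 2154 without mice Proargdrop_5702, Proargdrop_5785 and Proargdrop_5828.

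**Figure D1:**
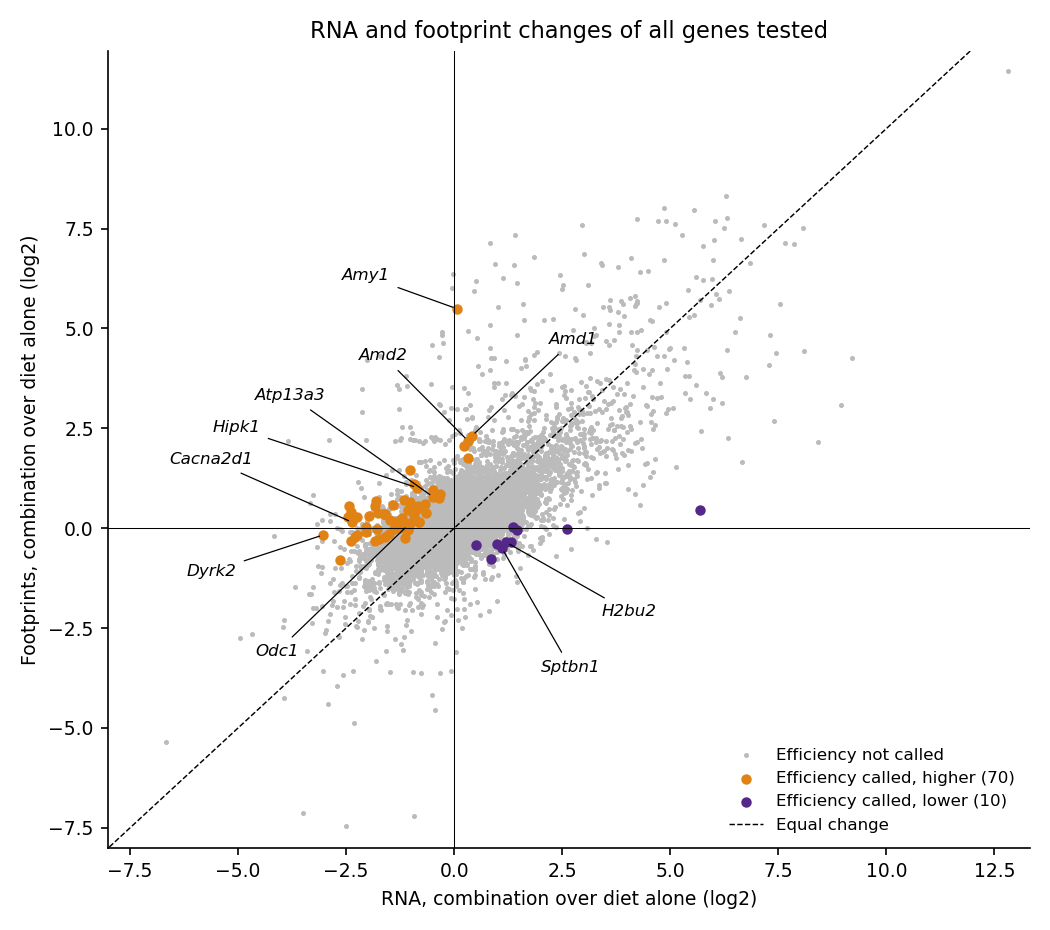
Change in RNA (horizontal axis) and in ribosome footprints (vertical axis) for the 13749 genes tested, both as log2 of combination over diet alone. The 70 genes with higher efficiency lie above the dashed line of equal change and mostly left of 0 on the RNA axis, while Amd1 and Amd2 lie above it through their footprints. The 10 genes with lower efficiency lie below the line and right of 0.

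Genes of the polyamine pathway held calls that came from footprints. Efficiency was higher for 4 of the 19 polyamine genes tested, Odc1, Amd1, Amd2 and Atp13a3, against 0.509% of all genes, and lower for 0. Amd1 and Amd2 are near-copies that amount to 1 measurement, so counts that hold both hold it more than once. With the mouse as a block only Amd1 and Amd2 of these genes stayed called. The median efficiency change of the 19 was 0.39, against 0.09 over all genes. Footprints were higher for 5 of the 19 (26.3%) and lower for 0, against 6.26% and 3.36% of all genes. RNA was higher for 1 (5.26%) and lower for 4 (21.1%), against 15.1% and 19.7%, so its lower share was near that of all genes. Without mice Proargdrop_5828 and Proargdrop_DFMO_5732, 3 of the 19 were called higher in efficiency, against 93 of all 14169 genes in that fit. Footprints were then higher for 5 and lower for 3 of the 19, against 10.6% and 8.29% of all genes. RNA was higher for 0 and lower for 6, against 13.9% and 17.9%. In efficiency both other scalings called 3, and limma on RPKM called 0. Leader frames of the called genes are shown because short frames ahead of the main one are the known site of polyamine sensing in mammalian Amd1. Capitals mark the start and the stop codon, sequences run 5′ to 3′ in GENCODE M21 transcripts on GRCm38, and the second Odc1 frame is cut after 30 bases.
Amd1 (chr10:40302155-40302175, minus strand): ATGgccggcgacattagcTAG
Amd2 (chr10:35711860-35711880, minus strand): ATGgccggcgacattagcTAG
Odc1, first frame (chr12:17544921-17544947, plus strand): ATGacgacgtgctcggcgtataagTAG
Odc1, second frame (chr12:17545135-17545164, plus strand): ATGggtcaggccagccgggccaccgtgctg
Atp13a3 (chr16:30388450-30388464, minus strand): ATGgggctgggcTGA
The Amd1 and Amd2 frames hold the same letters, 6 codons before the stop, and lie 296 and 300 bases ahead of the main start. A frame that starts with ATG and ends ahead of the main start was found in the leader of 43.3% of 13689 tested genes with an annotated transcript, and one of 10 codons or fewer in 29.4%. The Amd1 frame is read from another transcript of the gene than the one counted.

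Amd1 and its near-copy Amd2, which encode S-adenosylmethionine decarboxylase, carried more footprints in every combination mouse. Amd1 footprints were 127, 206, 198.5, 163 and 122 CPM in the combination mice, against 38.9, 41.4, 29.8, 24.5 and 30.3 CPM in the diet mice. Every combination mouse stood above every diet mouse by a wide margin. Amd1 RNA was 35.5, 48.0, 54.2, 46.7 and 29.1 CPM in the same combination mice, against 32.9, 46.0, 34.5, 30.2 and 16.1 CPM in the diet mice. The RNA values overlapped, with the lowest in mouse Proargdrop_5828.

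Amd1 footprints were 4.96-fold higher in the combination (log2 2.31 ± 0.25 SE, adjusted p = 1.61e-05). The RNA change of Amd1 was 0.41 ± 0.24 (adjusted p = 0.184), and its efficiency was higher by 1.90 ± 0.34 (adjusted p = 0.00985). Amd2 gave 2.19 ± 0.23 in footprints and 1.87 ± 0.32 in efficiency (adjusted p = 0.00896), with 0.32 ± 0.23 in RNA (adjusted p = 0.287). The 2 coding sequences have 1002 bases each and differ at 1 base, and 97.1% of 28-base windows of Amd1 are shared with Amd2, so the split of reads between them is uncertain and the 2 genes amount to 1 measurement. Summed over both, footprints averaged 318 ± 83.2 CPM in the combination and 66.9 ± 7.48 CPM on the diet alone (SD, n = 5 each). The log2 ratio of the sums was 2.61 ± 0.13 in the combination and 0.84 ± 0.44 on the diet alone. It was higher in 5 of 5 combination mice (exact permutation test over mice, two-sided, p = 0.00794, the smallest that 5 against 5 can give). Both genes were already called on these counts with ratios that did not overlap, so this test is no separate evidence. Efficiency of Amd1 stayed called with the mouse as a block (adjusted p = 0.0145) and missed the threshold without mouse Proargdrop_5785 (0.0526), in the fit of all 39 libraries (0.0557) and with limma on RPKM (0.451).

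Odc1, which encodes the enzyme that DFMO blocks, showed the other pattern, with lower RNA and footprints that overlapped between the groups. Odc1 RNA was 184.5, 264, 290.2, 167 and 223 CPM in the combination mice, against 487, 492, 461, 486 and 439 CPM in the diet mice. Every combination mouse lay below every diet mouse in RNA. Odc1 footprints were 645, 711, 642, 486 and 532 CPM in the combination and 473, 585, 611, 601 and 591 CPM on the diet alone, and these ranges overlapped. RNA fell by 1.07 ± 0.17 on the log2 scale (adjusted p = 8.45e-05), and footprints differed by 0.08 ± 0.16 (adjusted p = 0.826). Efficiency of Odc1 was higher by 1.14 ± 0.23, or 2.21-fold (adjusted p = 0.0232). With the mouse as a block the adjusted p was 0.0517, and the call was lost without any one of mice Proargdrop_DFMO_5732, Proargdrop_DFMO_5736 and Proargdrop_DFMO_5825 and mice Proargdrop_5702, Proargdrop_5784 and Proargdrop_5785 (0.0591 to 0.105).

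Atp13a3, a transporter of the endolysosomal P5B ATPase family that takes part in polyamine uptake, had 27.7, 36.6, 33.6, 32.2 and 31.0 CPM of footprints in the combination mice, against 20.7, 20.8, 17.9, 16.7 and 17.9 CPM in the diet mice. The footprint values did not overlap. Its RNA was 6.08 to 10.8 CPM in the combination and 8.18 to 16.1 CPM on the diet alone, with overlap. Footprints rose by 0.78 ± 0.20 (adjusted p = 0.0159), the RNA change was -0.48 ± 0.20 (adjusted p = 0.0594), and efficiency was higher by 1.26 ± 0.28 (adjusted p = 0.0402). The efficiency call was lost with RLE scaling (0.0732), with TMM scaling within each assay (0.0662), with the block (0.122), without any one of mice Proargdrop_DFMO_5732, Proargdrop_DFMO_5736, Proargdrop_DFMO_5746 and Proargdrop_DFMO_5825 and mice Proargdrop_5784 and Proargdrop_5785 (0.0797 to 0.172), and without Proargdrop_5828 and Proargdrop_DFMO_5732 together (0.064).

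Of the regulators of ornithine decarboxylase, Azin1 passed in both arms, Oaz1 and Azin2 in RNA and Oaz2 in none, with no efficiency call. Azin1, the antizyme inhibitor that protects the enzyme, had 60.1, 66.5, 64.6, 52.8 and 39.1 CPM of footprints in the combination mice, against 22.7, 22.9, 16.4, 15.7 and 24.9 CPM in the diet mice. Azin1 rose in footprints (1.47 ± 0.29, adjusted p = 0.00293) and in RNA (0.83 ± 0.28, adjusted p = 0.0275), and its efficiency change of 0.64 ± 0.40 did not pass (adjusted p = 0.494). Without mice Proargdrop_5828 and Proargdrop_DFMO_5732 the RNA change of Azin1 was 0.67 and did not pass (adjusted p = 0.0503), while its footprints did (1.53, adjusted p = 0.000711). Oaz1, the antizyme that sends the enzyme to the proteasome, had 694, 558, 474, 558 and 811 CPM of RNA in the combination mice, against 1386, 988.5, 1060.0, 1299 and 2411 CPM in the diet mice. Every combination mouse was below every diet mouse. Oaz1 RNA fell by 1.21 ± 0.22 (adjusted p = 0.000438), its footprints differed by -0.08 ± 0.22 (adjusted p = 0.871), and its efficiency change of 1.13 ± 0.32 missed the threshold (adjusted p = 0.0988). Azin2, a second antizyme inhibitor, had lower RNA (-0.96 ± 0.25, adjusted p = 0.00537) and an efficiency change of 1.04 ± 0.36 (adjusted p = 0.199). Oaz2, a second antizyme, passed in no arm.

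Of the breakdown enzymes, Sat1 passed in footprints and Paox in RNA, and none passed in efficiency. Sat1, which acetylates spermidine and spermine for export or oxidation, had 17.1, 20.5, 27.99, 21.1 and 27.0 CPM of footprints in the combination mice, against 12.0, 13.8, 17.0, 11.8 and 9.22 CPM in the diet mice. The lowest combination mouse, Proargdrop_DFMO_5732, stood just above the highest diet mouse, Proargdrop_5784. Sat1 footprints rose by 0.84 ± 0.19 (adjusted p = 0.00701), with an RNA change of 0.27 ± 0.18 (adjusted p = 0.255). Paox, which oxidises acetylated polyamines, had lower RNA (-1.40 ± 0.30, adjusted p = 0.00125), with 57.0 CPM in mouse Proargdrop_5828 and 14.1 to 20.2 CPM in the other diet mice. Without mice Proargdrop_5828 and Proargdrop_DFMO_5732, Paox changed by -0.85 in RNA (adjusted p = 0.00169) and by -0.74 in footprints (adjusted p = 0.0136). Srm and Sms, the spermidine and spermine synthases, Mat2a and Mat2b, which make S-adenosylmethionine, and Mtap, Sat2, Smox, Atp13a2 and Slc18b1 passed in no arm. Agmat was too low to be tested, with at most 1.75 CPM of RNA in a combination mouse.

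**Figure D2:**
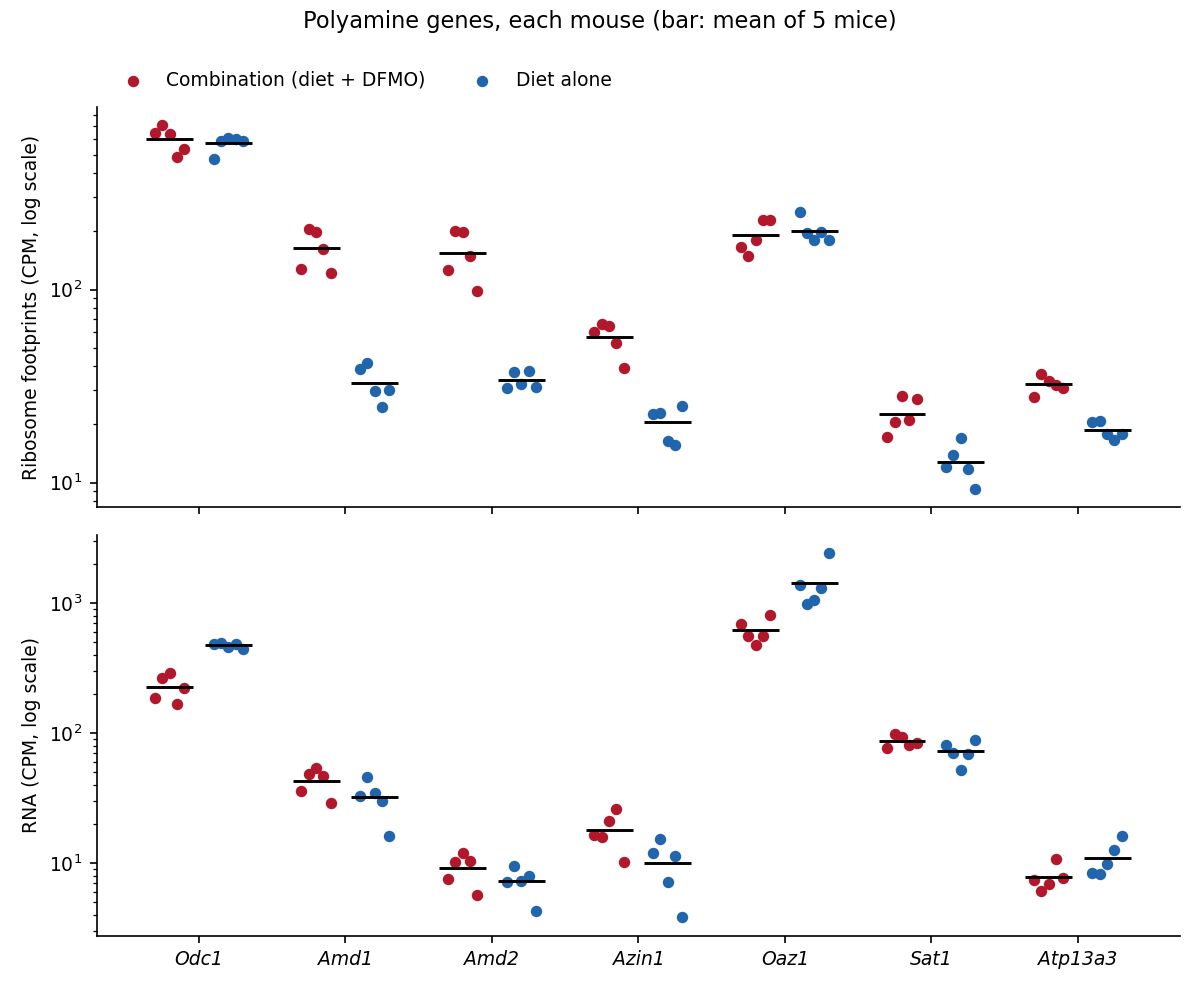
CPM of 7 polyamine genes in each mouse on a log scale, footprints above and RNA below, with combination mice in red left of diet mice in blue and bars at the mean of 5 mice. Footprints of Amd1, Amd2, Azin1 and Atp13a3 separate the groups, while for Odc1 and Oaz1 the RNA does, with combination mice lower.

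The eIF5A genes gave no efficiency call. Eif5a itself had 840.1 to 938 CPM of footprints in the combination and 851 to 1307 CPM on the diet alone, and its efficiency change was -0.21 ± 0.33 (adjusted p = 0.828). Dhps and Dohh, the 2 enzymes that make hypusine, had lower RNA (-0.90 ± 0.26 and -0.69 ± 0.18, adjusted p = 0.00954 and 0.0054) with efficiency changes of 0.51 ± 0.37 and 0.26 ± 0.25. Eif5a2 had at most 0.292 CPM of RNA in a combination mouse and passed in no arm. Mouse Mycn had 339.9, 251.8, 243, 272 and 254 CPM of footprints in the combination mice, against 364.5, 359, 355, 368 and 369 CPM in the diet mice. The groups did not overlap, yet the change of -0.42 ± 0.20 did not pass (adjusted p = 0.192), with a spread estimated over both assays. Its efficiency change was -0.26 ± 0.28 (adjusted p = 0.722), and how far reads of the transgene enter these counts was not tested.

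Many gains in efficiency were of genes with lower RNA in the combination and no call in footprints. By size, among named genes of at least 10 CPM in each assay whose ratios did not overlap, the 8 largest gains were those of Dyrk2 (2.86 ± 0.53), Fem1b (2.79 ± 0.55), Cacna2d1 (2.50 ± 0.52), Cggbp1 (2.16 ± 0.43), Zfp704 (2.06 ± 0.38), Hipk2 (2.06 ± 0.35), Tsc1 (1.99 ± 0.38) and Pdxk (1.96 ± 0.36). Adjusted p values in efficiency were 0.00896 for Hipk2 to 0.0237 for Cacna2d1. They encode a protein kinase, a substrate receptor of a ubiquitin ligase, an auxiliary calcium channel subunit, a protein that binds CGG repeats, a zinc finger protein, a homeodomain-interacting kinase, the mTORC1 inhibitor hamartin and pyridoxal kinase, in that order. RNA fell for all 8, by 1.61 for Pdxk to 3.02 for Dyrk2, and footprints differed by -0.23 to 0.40 with no call. Another 25 genes that met the same rule had smaller gains.

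Hipk2 RNA was 3.27, 3.45, 4.16, 2.62 and 3.43 CPM in the combination mice, against 13.7, 12.7, 15.8, 12.4 and 29.0 CPM in the diet mice. Its footprints were 31.1, 33.4, 23.0, 27.5 and 21.3 CPM in the combination and 29.1, 37.3, 17.3, 32.0 and 43.5 CPM on the diet alone. The RNA values were well apart and the footprint values mixed. Hipk2 was the only one of the 8 that stayed called in all 20 other settings, including the block (adjusted p = 0.028) and each mouse left out.

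The diet mice were not alike in RNA of Dyrk2, Fem1b and Cacna2d1. Dyrk2 RNA was 3.73, 3.37, 4.47, 2.53 and 3.50 CPM in the combination mice, against 9.06, 8.56, 54.8, 37.15 and 34.2 CPM in the diet mice. Diet mice Proargdrop_5784, Proargdrop_5785 and Proargdrop_5828 had at least 34.2 CPM, while mice Proargdrop_5702 and Proargdrop_5705 lay between them and the combination. Fem1b showed the same split, with 3.27, 4.18, 4.42, 3.25 and 4.23 CPM of RNA in the combination mice, against 5.14, 5.62, 43.1, 28.4 and 19.8 CPM in the diet mice. For Cacna2d1 a single mouse was far out, with 7.14 to 13.6 CPM of RNA in the combination and 21.7 to 32.7 CPM in 4 diet mice, against 139 CPM in mouse Proargdrop_5828. Footprints of Cacna2d1 were 124 to 167 CPM in the combination and 120.3 to 157 CPM on the diet alone.

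Calls of these genes depended on single mice, which is given as the adjusted p without them. Pdxk lost its call without mouse Proargdrop_5785 (0.0526), Zfp704 without Proargdrop_5785 (0.0685) or mouse Proargdrop_DFMO_5732 (0.0563), and Dyrk2 without Proargdrop_5785 (0.066), Proargdrop_DFMO_5732 (0.0552) or Proargdrop_DFMO_5736 (0.0649). Tsc1 lost it without Proargdrop_5785 (0.0526), Proargdrop_DFMO_5732 (0.066), Proargdrop_DFMO_5736 (0.0522) or Proargdrop_DFMO_5805 (0.0591). Cacna2d1 lost it without mouse Proargdrop_5785 or any 1 combination mouse (0.0572 to 0.105), and Fem1b and Cggbp1 without mouse Proargdrop_5784 or Proargdrop_5785 or any 1 combination mouse (0.0528 to 0.0945). With the block, Fem1b (0.103), Cggbp1 (0.0988) and Zfp704 (0.0589) were not called. Without Proargdrop_5828 and Proargdrop_DFMO_5732 together, Dyrk2 (0.0717) and Fem1b (0.115) were not, nor were Spp1 (0.0761) and Filip1 (0.0683), which had lower efficiency.

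The 4 genes that met the same rule with lower efficiency were Sptbn1, a spectrin of the membrane skeleton (-1.61 ± 0.32), the histone H2B gene H2bu2 (-1.56 ± 0.28), Spp1, the secreted protein osteopontin (-1.50 ± 0.34), and Filip1, a partner of filamin (-0.93 ± 0.21). Adjusted p values were 0.0183, 0.00985, 0.044 and 0.0441. RNA rose for all 4, by 1.11, 1.20, 1.46 and 0.50, and footprints did not pass for any. H2bu2 RNA was 46.8, 30.5, 29.0, 37.98 and 49.5 CPM in the combination mice, against 16.15, 13.3, 20.5, 20.5 and 13.3 CPM in the diet mice, with no overlap. Histone genes have close copies, so reads may be split among them. H2bu2 averaged 1103 CPM of footprints against 27.8 CPM of RNA, and how fully the RNA libraries hold its mRNA was not tested. H2bu2 stayed called without each mouse and with the block (0.0425). Sptbn1 lost its call without mouse Proargdrop_DFMO_5736, Proargdrop_DFMO_5746 or Proargdrop_DFMO_5805 or mouse Proargdrop_5785 (0.0621 to 0.0928). Spp1 lost it with the block (0.0868) and without mouse Proargdrop_5785 or any 1 combination mouse (0.11 to 0.172), and Filip1 with the block (0.101) and without any mouse but mice Proargdrop_5705 and Proargdrop_5828 (0.0702 to 0.17).

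**Figure D3:**
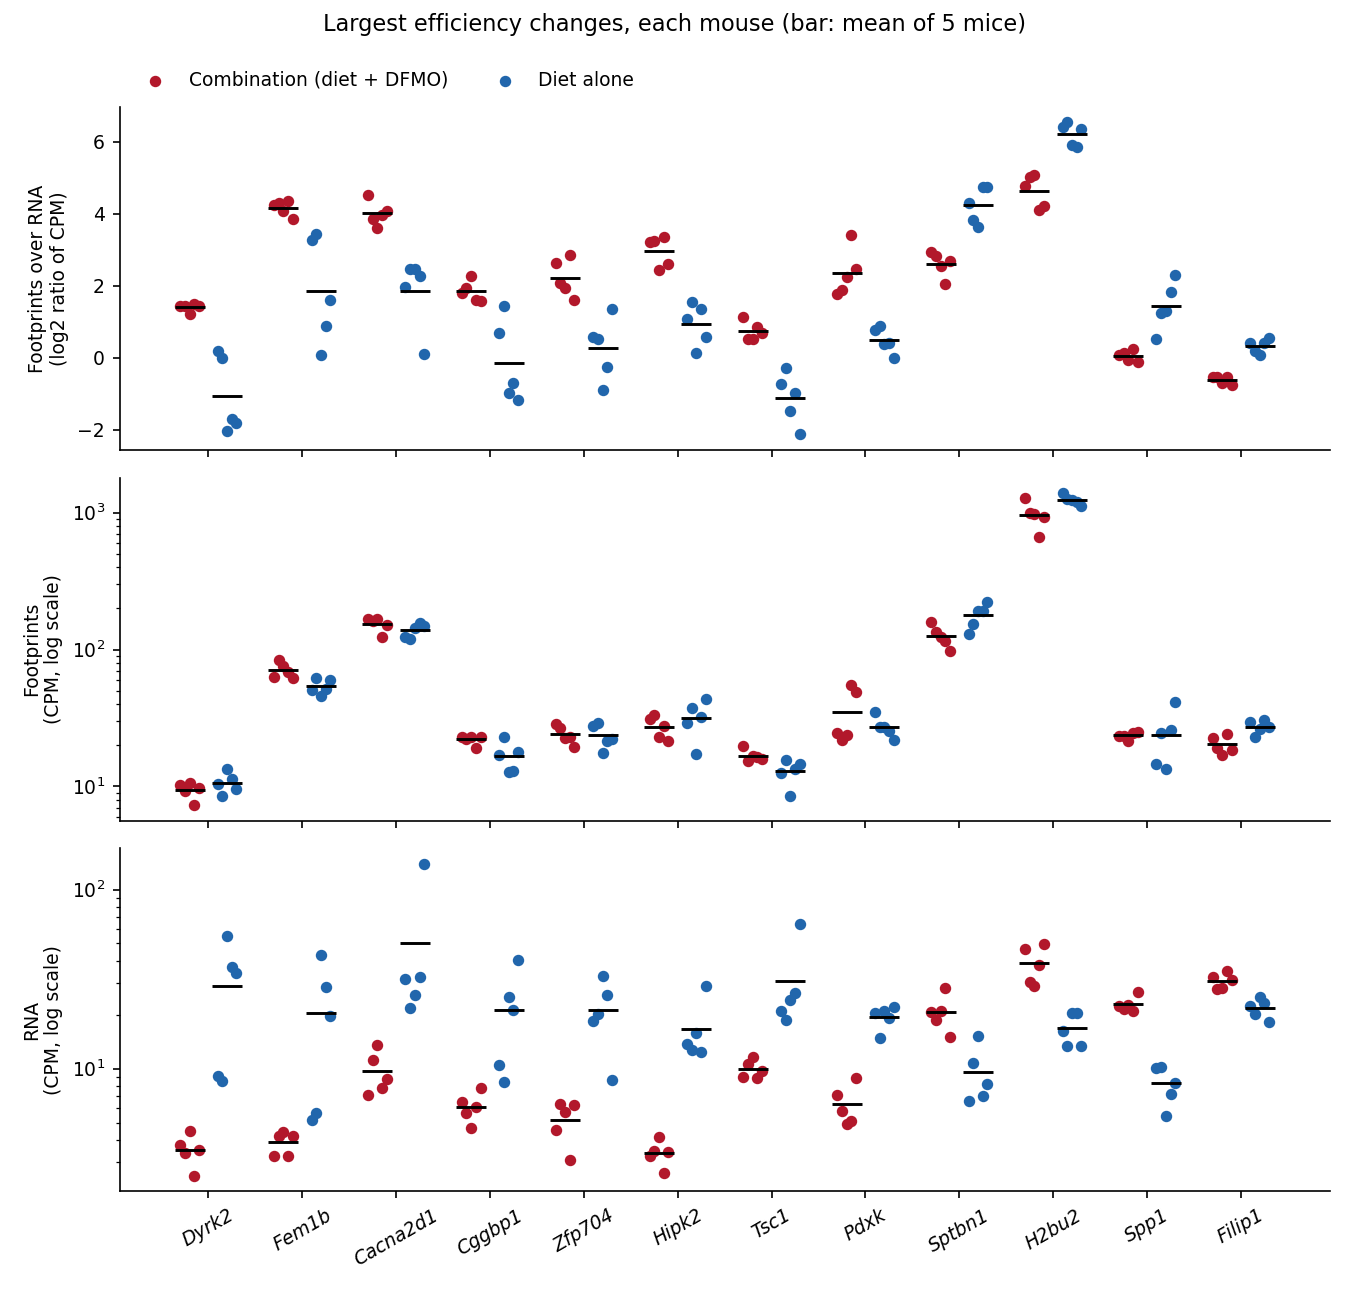
The 8 largest gains and the 4 losses in efficiency among named genes of at least 10 CPM in each assay whose ratios did not overlap, mouse by mouse: log2 ratio of footprints to RNA (top), footprints in CPM (middle, log scale) and RNA in CPM (bottom, log scale), with combination mice in red left of diet mice in blue and bars at the mean of 5 mice. The ratios do not overlap for any of the 12 genes, footprints overlap for all but Fem1b, and RNA overlaps only for Sptbn1.

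A smaller class of calls came from footprints, named after their values were seen. Beside Amd1, Amd2 and Atp13a3, footprints were higher and RNA was not called for Dlg2, a synaptic scaffold protein, Adgrl1, the adhesion receptor latrophilin, Iqsec3, an Arf exchange factor of inhibitory synapses, Trim2 and Trim67, ubiquitin ligases of the nervous system, Rgmb, a repulsive guidance molecule, and Amy1, an amylase. Rgmb footprints were 17.5, 25.4, 30.4, 36.8 and 25.7 CPM in the combination mice, against 7.83, 5.30, 9.43, 9.17 and 8.40 CPM in the diet mice. Every combination mouse was above every diet mouse. Rgmb footprints rose by 1.76 ± 0.24 (adjusted p = 0.00016) with an RNA change of 0.32 ± 0.22 (adjusted p = 0.281), and efficiency was higher by 1.44 ± 0.32 (adjusted p = 0.0429). For Iqsec3 footprints rose by 2.06 ± 0.29, and for Dlg2, Adgrl1, Trim2 and Trim67 by 0.75 to 0.95, with efficiency gains of 1.09 to 1.82 in these 5 genes. All 7 lost the efficiency call with the block, with an adjusted p of 0.0524 for Rgmb, 0.0696 for Dlg2, 0.105 for Trim2, 0.107 for Adgrl1, 0.112 for Iqsec3 and 0.115 each for Trim67 and Amy1. Each was also lost without any 1 combination mouse, except Adgrl1 without Proargdrop_DFMO_5732, without mouse Proargdrop_5784 (all but Amy1) and without mouse Proargdrop_5785 (all but Iqsec3). Without mouse Proargdrop_5702 the calls of Iqsec3, Amy1, Trim2, Adgrl1 and Trim67 were lost, and without mouse Proargdrop_5705 that of Trim2. Over these fits the adjusted p was 0.0531 to 0.164.

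Amy1 had the largest change of all efficiency calls, 5.43 ± 1.17 (adjusted p = 0.0339), and its ratios overlapped. Amy1 footprints were 129, 22.4, 18.9, 11.9 and 111 CPM in the combination mice, against 1.12, 0.568, 4.26, 1.13 and 0.413 CPM in the diet mice. Its RNA was 24.0, 29.4, 16.6, 18.0 and 31.3 CPM in the combination mice, against 10.8, 6.85, 5.47, 8.82 and 85.5 CPM in the diet mice, so only mouse Proargdrop_5828 stood above the combination. Markers of kidney, liver, pancreas and muscle moved beside it. Footprints were higher for 6 of 14 markers tested (42.9%) and lower for 0, against 6.26% and 3.36% of all genes. RNA was higher for 8 of these markers (57.1%) and lower for 2 (14.3%), against 15.1% and 19.7% of all genes. Their summed footprints were 906.7 to 1821 CPM in the combination and 789.6 to 1014 CPM on the diet alone, and their part in the Amy1 value was not tested. The pancreatic lipase Pnlip rose by 5.62 ± 0.94 in footprints and 3.91 ± 0.77 in RNA, with an efficiency change of 1.71 ± 1.20 that did not pass (adjusted p = 0.542). Without Proargdrop_5828 and Proargdrop_DFMO_5732 the adjusted p of Amy1 was 0.203, without mouse Proargdrop_5828 alone it was 0.104, and without mouse Proargdrop_DFMO_5732 alone 0.115.

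Klhdc10, Hipk1, Micall1 and 2810021J22Rik had lower RNA and higher footprints, both called, and are named after their values were seen. Klhdc10, a kelch protein that recruits substrates to a ubiquitin ligase, had the smallest p of all genes. Its footprints were 50.5, 56.7, 57.2, 63.1 and 65.4 CPM in the combination mice, against 42.8, 37.5, 42.9, 44.3 and 45.6 CPM in the diet mice. Its RNA was 14.8, 15.2, 14.4, 16.1 and 14.9 CPM in the combination mice, against 31.3, 25.05, 30.6, 26.3 and 29.6 CPM in the diet mice. Neither set overlapped, and both were tight within each group. Efficiency of Klhdc10 was higher by 1.38 ± 0.18 (adjusted p = 0.00181), with -0.92 ± 0.13 in RNA and 0.46 ± 0.13 in footprints. Hipk1, a kinase related to Hipk2, had an efficiency gain of 1.86 ± 0.33 (adjusted p = 0.00928), with footprints of 32.3 to 45.7 CPM in the combination and 16.2 to 21.6 CPM on the diet alone. Klhdc10 and Hipk1 stayed called without each mouse and with the block (0.0212 and 0.0425) and missed the threshold with limma on RPKM (0.193 and 0.13). Micall1, a Rab effector of endosomal recycling, had a gain of 2.04 ± 0.34 (adjusted p = 0.00896), from 1.11 ± 0.25 in footprints and -0.93 ± 0.23 in RNA, and stayed called in all 20 other settings. The unnamed locus 2810021J22Rik had a gain of 2.48 ± 0.56 (adjusted p = 0.044) at no more than 5.06 CPM of footprints in a combination mouse, and was not called with the block (0.0757) or without any mouse but mice Proargdrop_5705 and Proargdrop_5828 (0.069 to 0.135).

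Gene groups were described by 31 lists, of which 29 held no efficiency call. Beside the polyamine genes, the cholesterol genes held 1, Stard4, a cholesterol transfer protein (1.29 ± 0.28, adjusted p = 0.0332). Stard4 was not called with the block (0.089), without Proargdrop_5828 and Proargdrop_DFMO_5732 together (0.0823) or without any mouse but mice Proargdrop_5705 and Proargdrop_5828 (0.0621 to 0.156). The list counts below are of footprints and RNA, to be read against 6.26% higher and 3.36% lower footprints and 15.1% higher and 19.7% lower RNA among all genes. Examples are taken from the 2 members of a list with the smallest RNA p.

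Calls among ribosome biogenesis, mitosis and DNA replication genes were nearly all lower, and more members passed in RNA than in footprints. RNA was lower for 51 of 71 ribosome biogenesis genes (71.8%) and higher for 1, and footprints were lower for 21 (29.6%) and higher for 0. Rrp1b and Rrp12, which process ribosomal RNA precursors, changed by -1.94 ± 0.26 and -1.30 ± 0.19 in RNA and by -0.83 ± 0.26 and -0.71 ± 0.19 in footprints. RNA was lower for 42 of 68 mitosis genes (61.8%) and footprints for 12 (17.6%), with no member higher in either arm. Birc5, the survivin of the chromosomal passenger complex, changed by -1.32 ± 0.20 in RNA and -0.81 ± 0.20 in footprints. RNA was lower for 36 of 62 DNA replication genes (58.1%) and footprints for 8 (12.9%), again with none higher. Timeless, a replication fork protein, changed by -1.36 ± 0.20 in RNA and -0.82 ± 0.21 in footprints.

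Medians show how the arms compare within these lists. Ribosome biogenesis genes had a median of -0.80 in RNA and -0.52 in footprints, mitosis genes -0.80 and -0.47, and DNA replication genes -0.70 and -0.37. Their median efficiency changes were 0.25, 0.29 and 0.30, against 0.09 over all genes, with 0 calls in each. These medians rested on single mice: for ribosome biogenesis it was 0.01 without mouse Proargdrop_5828, and for mitosis 0.04 without mouse Proargdrop_DFMO_5732. Without both mice the 3 medians were -0.05, -0.000781 and 0.12. Footprints were then lower for 46 of 71, 34 of 68 and 27 of 62, against 8.29% of all genes in that fit, in which 10.6% of footprints were higher. With limma on RPKM, where the median RNA change of all genes was 0.37, RNA was lower for 24, 14 and 15 and footprints for 8, 5 and 0 of the 3 lists, and the efficiency median of ribosome biogenesis was -0.05.

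Histone genes had lower RNA for 28 of 49 (57.1%) and higher RNA for 2, with lower footprints for 1. Relative to the median of all genes, their median log2 ratio of footprints to RNA was 10.5 to 11.7 in the combination. On the diet alone it was 9.06 to 11.1. Their RNA counts were thus very low beside their footprints, and how fully the RNA libraries hold histone mRNA was not tested. The histone gene H2bu2, called above with lower efficiency and higher RNA, was not a member of this list. Cytosolic ribosomal protein genes had lower RNA for 23 of 78 (29.5%) and no footprint call, and their median efficiency change was 0.44. That value rested on mouse Proargdrop_5828, whose ribosomal protein RNA was high: relative to the median of all genes, the median log2 ratio of these genes was -3.49 in it, against -1.58 to -0.44 in the other diet mice and -1.75 to -0.90 in the combination. Without mouse Proargdrop_5828 the median was -0.16, and 0 of 78 members had lower RNA without Proargdrop_5828 and Proargdrop_DFMO_5732. With limma on RPKM RNA was higher for 9 of the 78 and lower for 3. Subunits of oxidative phosphorylation had higher RNA for 14 of 76 (18.4%) and lower RNA for 1, with higher footprints for 1.

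Among neuronal genes, calls were more often higher than lower in both arms. Footprints were higher for 18 of 68 neuronal differentiation genes (26.5%) and lower for 0, and RNA was higher for 26 (38.2%) and lower for 10. Gfra2, the neurturin receptor, rose by 2.77 ± 0.29 in footprints and 2.39 ± 0.28 in RNA. Prph, the intermediate filament peripherin, rose by 1.37 ± 0.39 in footprints and 3.50 ± 0.37 in RNA, with an efficiency change of -2.13 ± 0.53 that did not pass (adjusted p = 0.0638). Of 14 catecholamine genes, footprints were higher for 3 and RNA for 6, and RNA was lower for 1. Th, the rate-limiting enzyme of catecholamine synthesis, rose by 1.43 ± 0.23 in footprints and 1.74 ± 0.23 in RNA. Median efficiency changes were -0.12 for the neuronal and -0.27 for the catecholamine genes, and -0.0002 for the neuronal genes without mouse Proargdrop_5828. Without Proargdrop_5828 and Proargdrop_DFMO_5732, the medians were 0.00121 for the neuronal and -0.08 for the catecholamine genes. Footprints were then higher for 24 and lower for 3 of the neuronal genes, against 10.6% higher and 8.29% lower footprints among all genes. RNA was higher for 25 and lower for 8 of them, against 13.9% higher and 17.9% lower RNA among all genes.

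Translation itself was represented by factors, synthetases and stress genes. Of 53 translation factors RNA was lower for 10 and higher for 6, and footprints were lower for 2 and higher for 1. Of 41 ATF4 targets and amino acid stress genes, footprints were higher for 3 and lower for 3, and RNA was higher for 8 and lower for 4. Of 33 proline and arginine metabolism genes, footprints were higher for 4 and lower for 1. Asl, the argininosuccinate lyase that produces arginine, rose by 1.20 ± 0.30 in footprints and 1.74 ± 0.30 in RNA. Of 23 aminoacyl-tRNA synthetases footprints were lower for 2 and higher for 0. None of these lists held an efficiency call, and their median efficiency changes were -0.13 for translation factors, -0.26 for stress genes, -0.18 for proline and arginine metabolism and -0.04 for synthetases. These medians were -0.205, -0.10, -0.09 and -0.14 without Proargdrop_5828 and Proargdrop_DFMO_5732. In that fit 1 translation factor had lower efficiency, against 14 of all 14169 genes. Footprints were then lower for 10 of 53 translation factors and 5 of 23 synthetases, against 8.29% of all genes in that fit.

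Markers of other cells moved beside these groups. Footprints of erythroid markers were lower for 3 of 6 tested and RNA for 5, and their summed footprints were 2489 to 12400 CPM in the combination and 12370 to 42480 CPM on the diet alone. Without Proargdrop_5828 and Proargdrop_DFMO_5732 none of 7 erythroid markers was called in either arm. Endothelial markers had lower RNA for 6 of 19 and lower footprints for 1, with summed RNA of 144.9 to 209.9 CPM in the combination and 190.0 to 323.1 CPM on the diet alone. Without both mice footprints were lower for 8 of 20 endothelial markers and RNA for 7, against 8.29% and 17.9% of all genes in that fit. With limma on RPKM 1 endothelial marker was lower in RNA, against 677 of all 13749 genes. Schwann cell markers had higher footprints for 2 of 10 and higher RNA for 4. Macrophage, lymphoid, adrenal cortex and fibroblast markers had at most 3 calls in a direction in either arm. Without both mice, footprints were lower for 6 of 20 fibroblast and pericyte markers, against 8.29% of all genes in that fit. Of 9 erythroid and 20 endothelial markers, 0 were without counts in a group. Their part in the neuronal and proliferation counts was not tested.

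**Figure D4:**
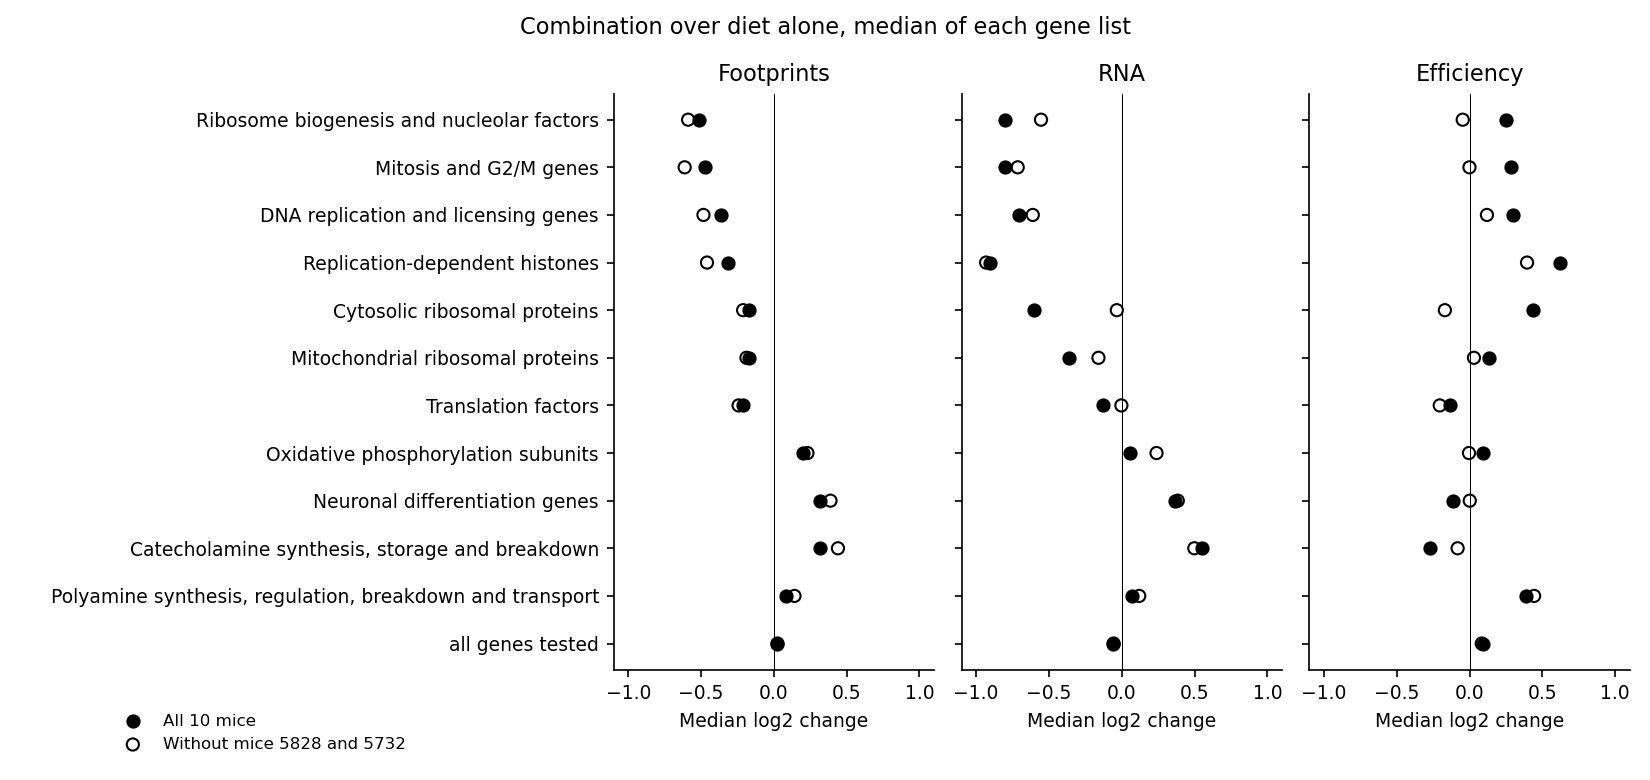
Median log2 change, combination over diet alone, of 11 gene lists and of all genes tested, in footprints (left), RNA (middle) and efficiency (right). Filled circles are all 10 mice and open circles the 8 mice without Proargdrop_5828 and Proargdrop_DFMO_5732. Ribosome biogenesis, mitosis and DNA replication lie left of 0 and neuronal genes right of 0 in footprints and RNA, and the efficiency median of ribosomal proteins is 0.44 with all mice and -0.17 without the 2.

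Sequence features were set beside efficiency because proline, arginine and polyamine supply could each act on particular codons. For each mouse, the codon content weighted by footprints minus that weighted by RNA was compared over 8 scores. The share of codons ending in A differed by -2.40 ± 0.23 percentage points between the assays in the combination and by -2.48 ± 0.69 on the diet alone (SD, n = 5 each). The groups differed by 0.08 points (exact permutation test, two-sided, adjusted p = 0.929). For arginine codons the difference was -0.11 points and for proline codons 0.04 points (adjusted p = 0.929 each). The smallest adjusted p of the 8 scores was 0.635, for codons ending in G. Weighted by footprints alone, codons ending in A made up 14.5 ± 0.36% in the combination and 14.0 ± 0.30% on the diet alone (exact permutation test, p = 0.0397, adjusted p = 0.286), with 4 of 5 combination mice above every diet mouse.

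Genes grouped by codon content or coding length gave medians within a narrow range, while calls of higher efficiency were more frequent among long coding sequences. In deciles of genes by the share of codons ending in A, the median efficiency change was 0.06 to 0.14. Among 3269 genes whose protein holds 3 or more prolines in a row it was 0.14, with 24 calls higher and 1 lower. Among 10420 genes without such a run it was 0.08, with 44 higher and 9 lower. The class without a run is far larger, and its share of calls of higher efficiency was the smaller one. Of all genes tested, 0.509% were called higher and 0.0727% lower. By coding length the median was 0.03 to 0.16 over the deciles, and by RNA level -0.02 to 0.22, with the highest value in the decile of most abundant RNA. Calls of higher efficiency numbered 2, 3 and 2 in deciles 1, 2 and 3 of coding length, the shortest. In deciles 9 and 10 they numbered 14 and 11.

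The length of the 3′ untranslated region, looked at after the called genes were seen, differed between the calls and the other genes. Its median was 3901 bases in 68 genes with higher efficiency and 1687 bases in the 10 with lower efficiency, against 983 bases in all genes tested. Of the genes with higher efficiency, 42 lay in the decile with the longest regions, 3440 bases or more. The median efficiency change of that decile was 0.42, with -0.25 in RNA and 0.15 in footprints. Footprints of that decile departed from the mean of the 10 mice by 0.05 to 0.13 in the combination mice and by -0.13 to -0.02 in the diet mice, with no overlap. RNA of that decile departed by -0.17 to 0.11 in the combination and by 0.04 to 0.29 in 4 diet mice, against -0.31 in mouse Proargdrop_5828. Without Proargdrop_5828 the decile's median efficiency change was 0.40, and without Proargdrop_5828 and Proargdrop_DFMO_5732 it was 0.37.

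The decile with the shortest regions had a median efficiency change of 0.44, but this rested on 1 library. RNA of that decile departed by 1.09 in mouse Proargdrop_5828, against -0.40 to 0.17 in the other diet mice and -0.43 to 0.10 in the combination. Without Proargdrop_5828 the median of the shortest decile was 0.09. Decile 5 had a median of -0.07 with all mice and of 0.003 without Proargdrop_5828.

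**Figure D5:**
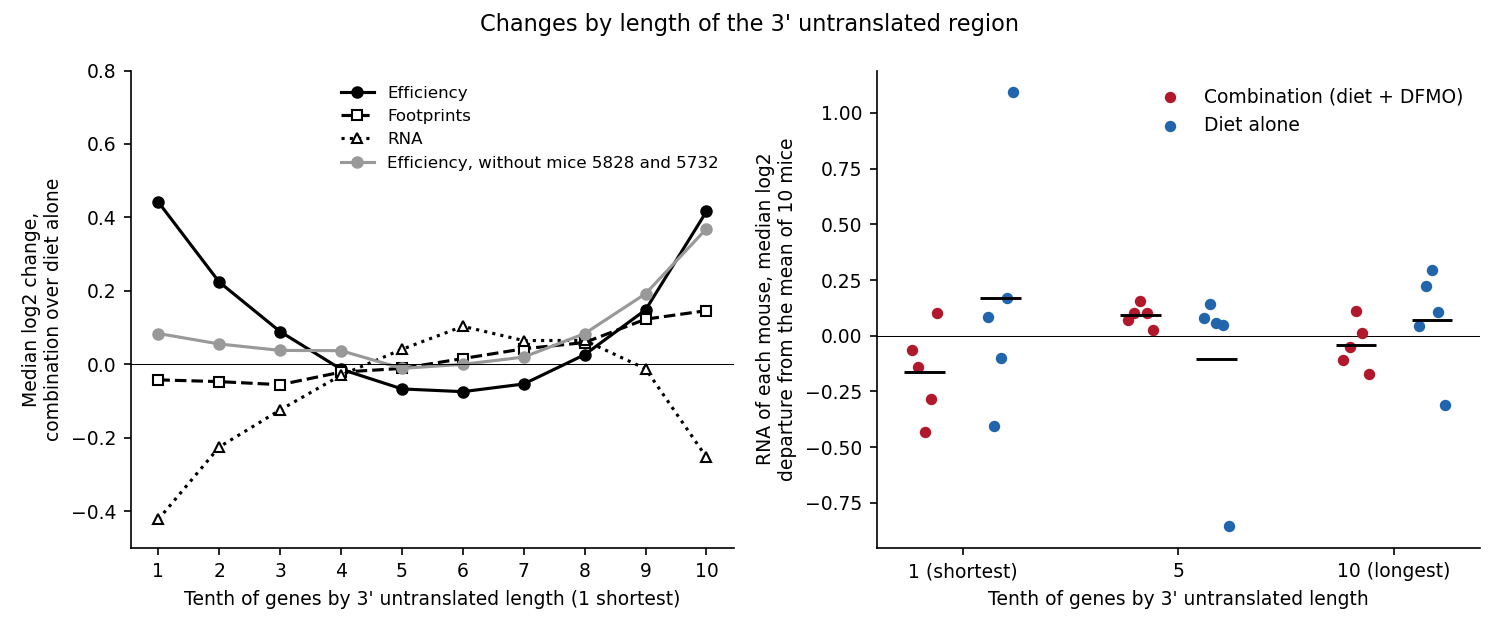
Left, median log2 change (combination over diet alone) in deciles of genes by the length of the 3′ untranslated region, for efficiency, footprints and RNA, with efficiency also without mice Proargdrop_5828 and Proargdrop_DFMO_5732. Right, RNA of each mouse as the median log2 departure from the mean of the 10 mice in the shortest, the middle and the longest decile, with combination mice in red left of diet mice in blue and bars at the mean. The longest decile is at 0.42 with all mice and 0.37 without the 2, and the shortest at 0.44 and 0.08.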

How the data were processed

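Ribosome footprints and RNA were measured in tumors of 10 mice, 5 given the diet lacking proline and arginine with DFMO and 5 given the diet alone. Per the labels' protocols, footprints were RNase I monosome fragments isolated under cycloheximide, and both assays started from 1 extract of each tumor. The authors deposited 1 table of raw read counts per transcript and 1 of RPKM values (reads per kilobase of coding sequence and library depth). The submitters' processing notes name cutadapt, Bowtie2, HISAT2 and GRCm38. Their versions, the read counter and the strand setting are not stated in what was used here, nor is the annotation behind the counts. Of 20333 transcripts, 20244 matched GENCODE M21, used for positions, lengths and sequences.

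All tests used the counts. Transcripts of all 20 libraries were filtered with filterByExpr and scaled by TMM, and the contrast of footprint change minus RNA change was tested with edgeR 4.0.16 (robust quasi-likelihood F test, R 4.3.3), with Benjamini-Hochberg adjustment over 13749 genes at 0.05. Errors beside log2 changes are approximate standard errors, the size of the log2 change divided by the square root of its F statistic. Values per mouse are CPM, and ratios use log2 CPM with a prior count of 2. Nothing in the labels separates cultures or litters, so p-values rest on the spread between these mice. The spread of each gene was estimated over the libraries of both assays together. Errors and p-values of footprints therefore also carry the spread of RNA, and those of RNA the spread of footprints. Both assays came from 1 extract, so the mouse pairs them. In 6 of 10 mice, departures from the group mean correlated best with the mouse's own other assay, among the 5 mice of its group. The main test did not use this pairing and treated the libraries as independent. The mouse as a block was an alternative, beside RLE scaling, TMM within each assay, no filter, DESeq2 1.42.0, limma 3.58.1 on log2(RPKM + 0.1), voom with quality weights, all 39 libraries and each mouse left out. No library was identical to another.

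Named genes were the called ones with the largest changes (up to 8 each way) among genes of at least 10 CPM in each assay and non-overlapping ratios, all polyamine and eIF5A genes, Mycn, and called members of each list; others are marked in the text. Codon scores and the sum of Amd1 and Amd2 used exact permutation tests over the 252 splits of 10 mice. The members and lists were chosen with earlier results of these data known. The grouping by length of the 3′ untranslated region, the example rule of the lists and the fit with the block but without 2 mice were chosen after seeing the data. The other 19 libraries were used only in 1 alternative.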

Additional observations from a re-analysis of the deposited data

Results flagged for a closer look

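Values of 1 mouse far from the other 4 of its group were found in 13 of 112 groups of 5 mice examined, where chance gives about 5%. Most were log2 ratios of footprints to RNA in diet mouse Proargdrop_5828, whose RNA library stood apart: -3.73 for Oaz1, -1.65 for Paox and 0.10 for Cacna2d1 lay below the other diet mice, and -2.70 for Smox, 1.02 for Srm, 2.96 for Mtap and 1.28 for Trim67 lay above them. In combination mouse Proargdrop_DFMO_5732 the ratio of Iqsec3 was low (0.52), the median ratio of mitosis genes relative to all genes was high (0.97), and footprints minus RNA gave -2.80 percentage points for codons ending in A and 3.998 for codons ending in C. The ratio of Dyrk2 was 1.22 in mouse Proargdrop_DFMO_5746, below the other combination mice, and that of Trim67 was 2.16 in mouse Proargdrop_DFMO_5736, above them. What sets these values apart was not tested.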

How the results depend on the processing

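Of the values recomputed, none reversed its direction while called. The 20 alternatives apply to efficiency changes, and fewer to other results, since the replicate block joins the assays of a mouse and has no counterpart within footprints or RNA alone. The count of 80 efficiency calls was 37 with no filter, 386 with DESeq2, 24 with limma on RPKM, 1197 with voom quality weights, 33 with the mouse as a replicate block and 338 with that block and without Proargdrop_5828 and Proargdrop_DFMO_5732 (added after seeing the data). It was within 1.5 times under RLE scaling (66), TMM within each assay (58), all 39 libraries (110) and without both mice (107), and 19 to 198 leaving out 1 mouse. The 1323 footprint calls became 5291 with voom weights, 2669 without both mice and 710 to 2154 leaving out 1 mouse. The 4787 RNA calls became 2762 with limma on RPKM and were 3545 to 5297 leaving out 1 mouse. Causes were not tested.

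Of 28 named genes with a call, limma on RPKM lost 23, the replicate block 16 (given in the results with their adjusted p, singly or as a range, and it changed no other call), no filter 13, all 39 libraries 8, both scalings 6 each, leaving out both mice 7 and leaving out 1 mouse 1 to 21. DESeq2 lost 0 and gave no adjusted p for Cacna2d1. Calls were gained 7 times, for Azin1, Azin2, Oaz1 and Sat1. Limma on RPKM moved the median of all genes to -0.15 in efficiency, 0.21 in footprints and 0.37 in RNA. Footprint depth, 3353371 counts at the lowest, limits the precision of low genes.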

Other observations

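Collagen genes had the lowest median efficiency change of the gene lists that are not cell markers, -0.73 over 22 genes, against 0.09 over all genes. It came from footprints, with a median of -0.61 against 0.04 in RNA, and no member passed in efficiency or footprints. Without Proargdrop_5828 and Proargdrop_DFMO_5732 the median was -0.66, and footprints were lower for 9 of 22, against 8.29% of all genes. Summed footprints of fibroblast and pericyte markers were 1578 to 2574 CPM in the combination and 1499 to 3789 CPM on the diet alone, with lower footprints for 6 of 20 markers without both mice, and their part in these values was not tested. Interferon response and MHC class I genes had higher RNA for 6 of 36 and lower RNA for 0, with higher footprints for 2 and lower for 1.

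Neuroblastoma core transcription factors moved both ways. RNA was lower for 8 of 19 and higher for 3, and footprints were higher for 2 and lower for 2. Lmo1, a transcriptional cofactor, changed by -1.51 in RNA and -0.83 in footprints, and Ebf3, a neuronal transcription factor, by 3.02 in RNA and 1.61 in footprints, with efficiency changes that did not pass.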
